A study of Mus musculus with 6 samples.

Results

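Solute carriers are membrane proteins that move ions, transmitters, sugars, amino acids, metals and other small molecules across membranes, and the genes that encode them carry names beginning with Slc. In the brain, carriers on neurons and astrocytes clear transmitters from the synaptic cleft and set the ion gradients on which signalling depends, carriers on synaptic vesicles load their cargo, and carriers of vessel walls admit nutrients. The genes described here were all those whose name begins with Slc and a digit and that reached at least 60 counts summed over 6 libraries. The mitochondrial Slc25 family (47 genes) and 5 genes described with the transmitter systems (Slc1a2, Slc1a3, Slc17a6, Slc17a7 and Slc32a1) were left out. Of 369 such genes among the 21958 protein-coding genes counted, 317 remained, 117 of these were below the count minimum (34 of them with no count at all), and 200 were kept. All 200 passed the expression filter of the test.

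Synaptoneurosomes, a filtered brain fraction enriched in pinched-off synaptic terminals with attached postsynaptic parts, were made from the hippocampus and adjacent cortex of FVB mice aged 6 to 8 weeks. One group of 3 libraries held polyribosomal RNA of synaptoneurosomes given NMDA (50 µM) and glutamate (10 µM) for 30 s, with the receptor antagonist APV (120 µM) added to end the pulse and a further 20 min of incubation. The other group of 3 libraries held total RNA of unstimulated synaptoneurosomes, which the methods describe as kept on ice with the elongation inhibitor cycloheximide. Each preparation pooled tissue of several mice and was divided into aliquots, so that same-numbered libraries came from a shared preparation. By the methods, the groups differ together in stimulation, in warm incubation against ice with cycloheximide, and in RNA fraction. These cannot be told apart here. Library totals were 5294482 to 7361580 counts on polyribosomes and 1044955 to 3738022 in total RNA, with total RNA replicate 3 the shallowest, so weakly expressed carriers were measured least precisely there. In such bulk libraries, fewer cells of a type and less RNA per cell cannot be told apart.

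The count minimum is the only measured value that chose the genes, and because the polyribosome libraries were deeper it weighed them more. Just inside it were Slc38a6 with 70 counts and Slc4a5 with 73, and just outside were Slc9b2 and Slc11a1 with 58 each. The name of the group is wider than the plasma membrane. Slc35 carriers sit mainly in the Golgi and endoplasmic reticulum, many zinc carriers in intracellular compartments, and the vesicular carriers in synaptic vesicles or lysosomes. The name rule also took in 4 genes that are named after a carrier but encode none, namely the scaffold proteins Slc9a3r1 and Slc9a3r2, the adaptor Slc4a1ap, and Slc7a6os. The genes are therefore called solute carriers outside Slc25 below.

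Coding stretches of 6 carriers are shown because fold change moved with base composition across the group. These carriers were picked by the tests described below, not by the size of the fold change. More extreme values existed. Slc38a6, for example, was at a log2 fold change of −0.79 and did not pass, with G or C at the third position in 63.2% of its codons. Capitals mark G or C at the third position of a codon. Each stretch holds the middle 60 bases of the coding sequence on GRCm38, written 5′ to 3′ on the coding strand, spans 2 exons within the interval given, and holds 20 codons. The first 3 genes were higher on polyribosomes (Slc15a3, chr19:10848784-10853183, plus strand; Slc12a9, chr5:137322851-137323048, minus strand; Slc7a10, chr7:35197911-35198649, plus strand). The last 3 were lower when same-numbered libraries were compared as pairs (Slc35a3, chr3:116681223-116687067, minus strand; Slc36a4, chr9:15727000-15728721, plus strand; Slc30a9, chr5:67334651-67339992, plus strand).
Slc15a3: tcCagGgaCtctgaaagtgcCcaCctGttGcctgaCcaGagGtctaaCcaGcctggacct
Slc12a9: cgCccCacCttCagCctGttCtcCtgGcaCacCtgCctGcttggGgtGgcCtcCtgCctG
Slc7a10: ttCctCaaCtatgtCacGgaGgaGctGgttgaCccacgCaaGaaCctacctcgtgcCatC
Slc35a3: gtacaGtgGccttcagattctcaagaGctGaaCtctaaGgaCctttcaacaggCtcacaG
Slc36a4: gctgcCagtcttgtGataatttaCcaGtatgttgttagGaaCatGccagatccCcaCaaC
Slc30a9: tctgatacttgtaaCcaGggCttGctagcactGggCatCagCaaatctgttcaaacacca
The stretches of the higher genes hold 12, 19 and 14 capitals, and those of the lower genes 9, 10 and 8. Over the whole coding sequence, G or C stood at the third codon position in 71.6%, 66.8% and 74.2% of codons in Slc15a3, Slc12a9 and Slc7a10. The corresponding shares were 37.1% in Slc35a3, 59.0% in Slc36a4 and 41.3% in Slc30a9.

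The question put to these libraries was which carrier mRNAs were over- or underrepresented on polyribosomes of stimulated synaptoneurosomes relative to the total RNA of the resting preparation. Most carriers differed little. Of the 200 genes, 150 had a log2 fold change between −0.5 and 0.5, 44 were above 0.5 and 6 below −0.5. The group as a whole lay above the middle of the transcriptome, with a median log2 fold change of 0.19 against 0.00 over the 12255 genes tested. The fold change was positive for 142 carriers (71.0%) and for 50.1% of all genes. Medians within the 3 same-numbered pairs were 0.12, 0.20 and 0.32, a mean of 0.21 ± 0.10 (SD, n = 3). Summed over the group, the carriers' share of all counts on polyribosomes was 2.09% ± 0.0987 (SD, n = 3), with libraries from 2.03% to 2.21%, and 1.88% ± 0.166 in total RNA, with libraries from 1.69% to 1.99%. These ranges did not overlap, and the exact two-sided permutation test gave p = 0.1, the smallest value that 3 against 3 libraries allow.

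By edgeR's quasi-likelihood test, with p-values adjusted over all genes after Benjamini and Hochberg, 3 carriers passed an adjusted p of 0.01 as higher on polyribosomes, 1.5% of the group against 0.71% of all genes tested, and none was lower, against 2.36% of all genes. At an unadjusted p under 0.05 the numbers were 49 higher and 3 lower, against 15.4% and 17.1% of all genes. DESeq2 gave 15 higher and 0 lower, against 321 (1.92%) and 372 (2.22%) of 16736 genes with at least 1 count. All of these calls fell among the 12255 genes that passed the expression filter. Both shares are therefore low beside those of the filtered fits. With the shared preparation of same-numbered libraries in the model, called the replicate block below, 35 carriers (17.5%) were higher against 11.8% of all genes, and 3 (1.5%) were lower against 13.2%. Without the scaffolds named after a carrier, 33 were higher. The error of the fit with the block was largely shared across genes, so its p-values do not measure each gene's own spread between preparations. Without the filter on low counts, 14 carriers were higher and 0 lower, against 2.84% and 3.38% of the same 16736 genes, which include many with few counts. With library totals as the only scaling, no carrier passed in either direction, against 0.343% and 2.99%, and none passed with a correction for GC content and length but no block, against 0.261% and 0.792%.

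Single libraries decided the calls of the fit without the block. With polyribosome replicate 1, 2 or 3 omitted, 1, 1 and 2 carriers were higher, where 0.391%, 0.0894% and 0.342% of all genes were. With total RNA replicate 1, 2 or 3 omitted, 0, 0 and 1 were higher, where 0.0157%, 0.0% and 0.483% of all genes were. No carrier was lower in any of these 6 fits, although 1.23%, 0.374% and 1.7% of all genes were lower without a polyribosome library and 0.503%, 0.173% and 1.56% without a total RNA library. In the fit with the block, the count depended on the pairs. Without the third pair it again gave 35 higher and 3 lower (11.7% and 12.8% of all genes), without the first pair 20 higher and 1 lower (5.15% and 7.47%), and without the second pair 12 higher and 0 lower (4.19% and 5.52%).

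The separation of the groups was uneven in direction. All polyribosome libraries lay above all total RNA libraries for 65 carriers (32.5%, against 17.4% of all genes), and below them for 5 carriers (2.5%, against 18.9%). The 5 were Slc16a14, Slc16a7, Slc36a4, Slc38a6 and Slc38a9, of which Slc36a4 passed the test with the block and the others passed neither test. All 3 pairs were higher for 97 carriers (48.5%, against 30.2%) and lower for 19 (9.5%, against 30.6%). Of the 35 carriers higher with the block, 33 had no overlap between the groups, and the exceptions were Slc22a6 and Slc6a20a.

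**Figure D1:**
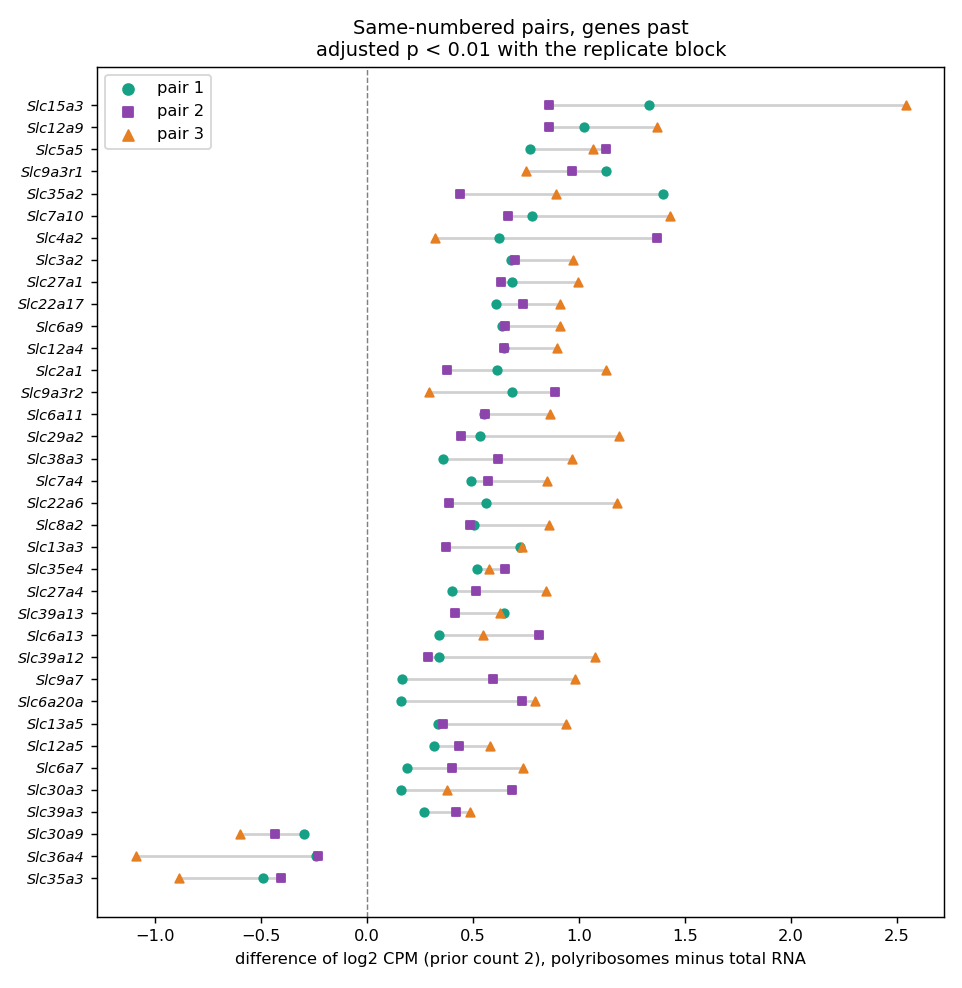
Difference of log2 CPM (prior count 2; CPM scales counts by library size) between NMDA polyribosomes and unstimulated total RNA in each same-numbered pair, for 36 of the 38 genes past an adjusted p of 0.01 with the replicate block; points are pairs and lines join them. The 33 higher genes shown lie right of 0 and the 3 lower genes left of it in all 3 pairs.

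Slc15a3, a lysosomal carrier of histidine and small peptides known mainly from immune cells (chromosome 19, 10839727 to 10859362 on GRCm38), had the largest positive fold change. Its level was 20.7, 13.1 and 24.5 normalized CPM in polyribosome replicates 1 to 3, and 7.95, 7.03 and 3.84 in total RNA replicates 1 to 3. The groups did not overlap, and the lowest total RNA value, in replicate 3, rested on 4 counts. The log2 fold change was 1.47 (SE 0.29, adjusted p = 0.00711), and 1.40 with the block (adjusted p = 1.16e-07). Each pair was higher. The call without the block held in the fit without polyribosome replicate 2 and was lost when any other library was left out.

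Slc12a9, a member of the cation-chloride cotransporter family whose own transport substrate is less well established (chromosome 5, 137314558 to 137333597), measured 65.2, 70.2 and 119.6 CPM on polyribosomes and 31.8, 38.5 and 46 CPM in total RNA. The third preparation was highest in both groups, and no total RNA library reached a polyribosome value. The log2 fold change was 1.17 (SE 0.24, adjusted p = 0.00843). Without polyribosome replicate 3 it was 0.86 and still passed, while leaving out polyribosome replicate 2 or any total RNA library ended the call.

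Slc7a10, the astrocytic exchanger of small neutral amino acids that handles D-serine and glycine (chromosome 7, 35186385 to 35204898), stood at 97.5, 90.1 and 145.6 CPM on polyribosomes against 56.6, 56.6 and 53.7 CPM in total RNA. The total RNA libraries were close together and all below every polyribosome library. The log2 fold change was 0.99 (SE 0.20, adjusted p = 0.00751), a 1.98-fold higher level. The call was lost without any one library other than polyribosome replicate 3. None of these 3 calls held when counts were scaled by library totals alone or with a correction for GC content and length but no block, and all 3 held with the block, both alone and with that correction. Exons of Slc15a3 overlap those of Tmem132a on the opposite strand, and exons of Slc7a10 overlap those of Lrp3 on the opposite strand. The methods do not say whether strand entered the counting, so the counts of both genes are uncertain to that extent, whereas Slc12a9 has no overlapping exon in the annotation. In all, 55 of the 200 genes had such an overlap, among them 12 of the 38 that passed with the block.

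**Figure D2:**
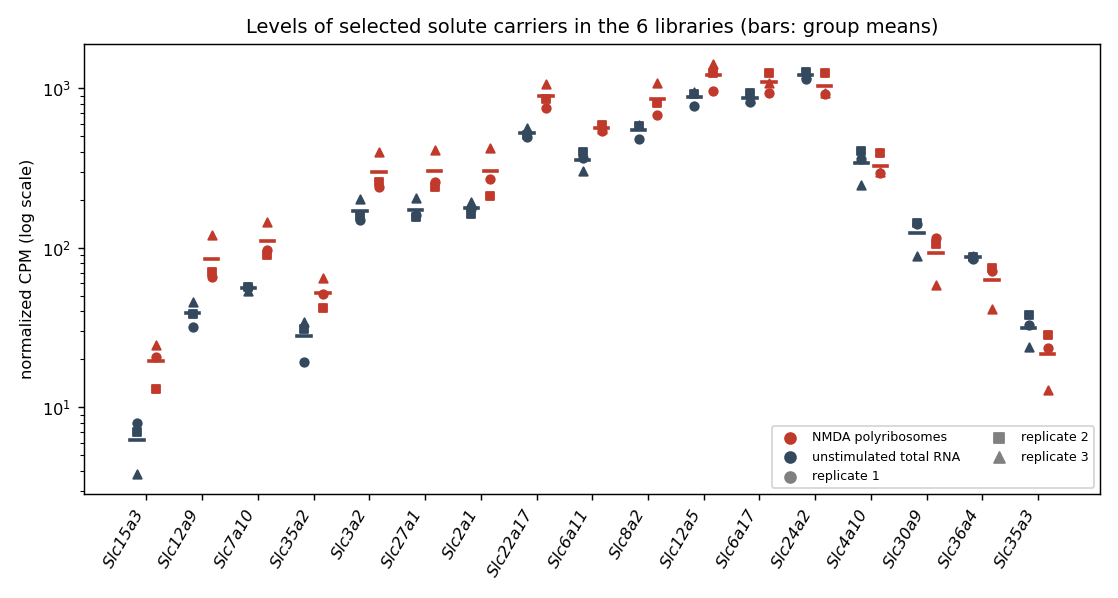
Normalized CPM (log axis) of 17 solute carriers in each of the 6 libraries, with total RNA in dark blue and NMDA polyribosomes in red, replicates by shape, and bars for group means. Slc15a3, Slc12a9 and Slc7a10 at the left show no overlap between groups, Slc24a2 and Slc4a10 overlap, and in Slc36a4 every polyribosome library lies below the total RNA libraries.

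Levels between genes were compared as CPM per kb of the longest coding transcript, averaged over both groups. They ran from 0.575 to 301 with a median of 11.4, and 39 carriers lay within 10-fold of the highest. Slc22a17, also known as the lipocalin-2 receptor, headed the order at 301 CPM per kb. Slc12a5, the neuronal potassium-chloride cotransporter KCC2 that keeps neuronal chloride low, was at 173. Slc6a17, a vesicular carrier of neutral amino acids, followed at 155, and Slc8a2, a sodium-calcium exchanger of neurons, at 133. Slc4a4, the sodium bicarbonate cotransporter of astrocytes, Slc6a11, the astrocytic GABA transporter GAT3, and Slc24a2, a potassium-dependent sodium-calcium exchanger of neurons, were close together at 115, 111 and 106. The leading carriers are thus known from both neurons and astrocytes. Across the 200 genes the log2 fold change was nearly unrelated to level (Pearson r = 0.10 and Spearman rho = 0.10 with log2 mean CPM, a description across genes of the same libraries).

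When the genes were divided by transport role, the medians ran from 0.58 to −0.17. Scaling by library totals alone moved the median of all genes by −0.11, and the carriers then had a median of 0.08, which is 0.19 above that shift. Under that scaling the medians of the vesicle, bicarbonate and metal lists fell below 0 (−0.0013, −0.08 and −0.03) but stayed above that of all genes. The monocarboxylate (−0.28) and nucleotide-sugar (−0.12) medians, negative before, lay below that of all genes. Carriers are named in what follows by the rule of the methods, and those that passed only with the block were added after their values were seen. Counts with the block stand beside 11.8% of all genes higher and 13.2% lower, and counts with the GC and length correction added to it beside 8.67% and 7.31%.

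**Figure D3:**
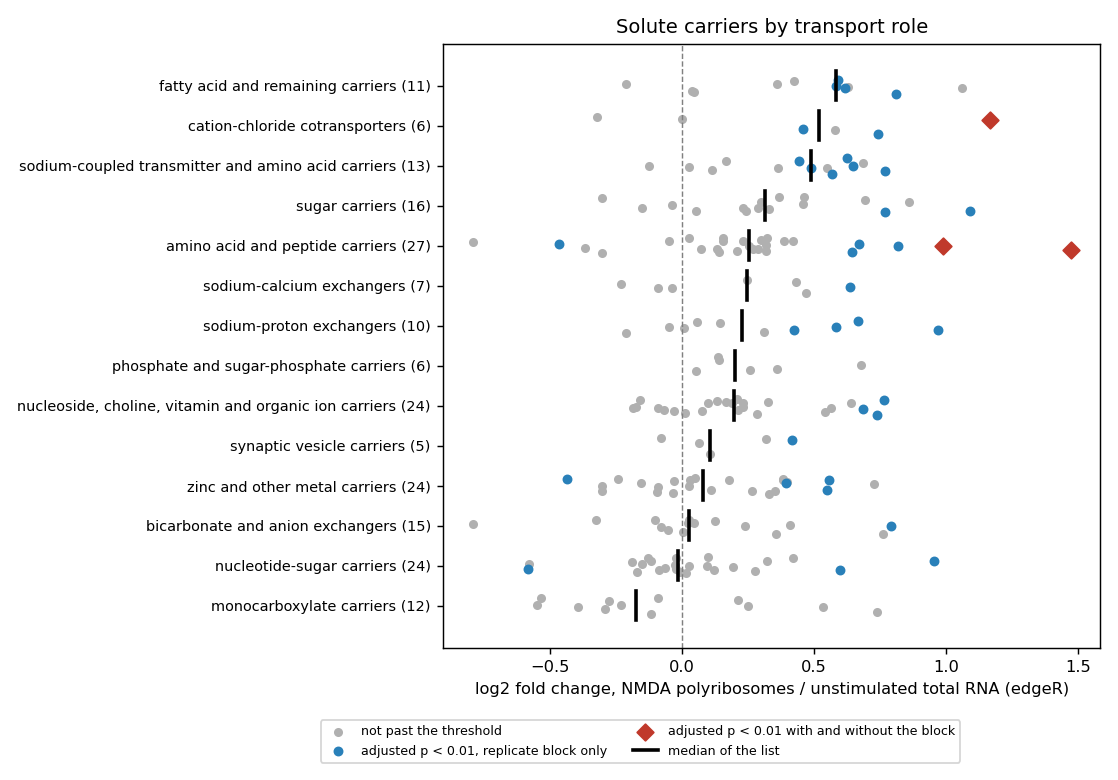
Log2 fold change of each of the 200 solute carriers (points) between NMDA polyribosomes and unstimulated total RNA, grouped by transport role with the number of genes in parentheses and the list median as a bar; blue and red mark genes past an adjusted p of 0.01 with the replicate block. The median is highest for the fatty acid and remaining carriers (0.58) and lowest for the monocarboxylate carriers (−0.17).

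The Slc1 and Slc6 families take up transmitters and amino acids at the plasma membrane with sodium. Of their 13 genes, 12 had a positive fold change, the median was 0.49, and 6 were higher with the block (46.2%), all of them Slc6 genes. None passed without it. Slc6a11 was at 539.6, 586.6 and 554.0 CPM on polyribosomes against 367.5, 398.2 and 304.0 CPM in total RNA, without overlap, with a log2 fold change of 0.65 (SE 0.17, adjusted p = 0.0235, and 1.23e-05 with the block). Slc6a9, the glycine transporter GlyT1 found mainly on astrocytes, was at 76.7, 89.6 and 117.8 CPM against 49.2, 56.9 and 62.3 CPM. Its log2 fold change was 0.77 (SE 0.19, adjusted p = 0.0192, and 3.75e-06 with the block), and its exons overlap those of B4galt2 and other genes. Slc6a13, the GABA transporter GAT2 of the meninges and vessels, Slc6a7, the proline transporter of excitatory terminals, and Slc6a20a, another proline carrier, passed with the block at 0.57, 0.44 and 0.63. After the GC and length correction was added, Slc6a20a was at 0.72 and still passed (adjusted p = 1.12e-05), whereas Slc6a13 (0.33, adjusted p = 0.108) and Slc6a7 (0.18, adjusted p = 0.254) did not, and 4 of the 13 genes were higher. The taurine transporter Slc6a6 (0.11) and the creatine transporter Slc6a8 (0.03) passed neither test. Slc1a1, the neuronal glutamate transporter EAAC1, at 241.8 ± 30.1 CPM against 214.0 ± 31.1 CPM, and Slc1a4, a carrier of alanine, serine and cysteine, at 235.2 ± 57.9 against 183.6 ± 27.5 CPM (SD, n = 3), also passed neither.

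Carriers of synaptic vesicles numbered 5 (median 0.11). Slc6a17 was the most abundant, at 930, 1255 and 1075 CPM on polyribosomes and 819, 937 and 859 CPM in total RNA. Its lowest polyribosome library lay within the total RNA range, and the log2 fold change of 0.32 did not pass (adjusted p = 0.229, and 0.0423 with the block). Slc30a3, the carrier that loads zinc into glutamatergic vesicles, was at 104, 146 and 109.7 CPM against 93.1, 90.8 and 84.4 CPM. Its groups did not overlap, and with the block it passed at 0.41 (adjusted p = 0.00758, and 0.113 without the block). With the GC and length correction added, the value was −0.04 and did not pass (adjusted p = 0.865). Slc17a8, the vesicular glutamate transporter VGLUT3 of scattered neurons, was rare at 3.14 ± 0.634 CPM against 2.86 ± 1.58 CPM (SD, n = 3).

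Cation-chloride cotransporters move chloride with potassium or sodium and potassium, and set the chloride gradient that GABA receptors use. Of the 6, 3 were higher with the block (50.0%, against 11.8% of all genes), namely Slc12a9, Slc12a4 and Slc12a5, and the median was 0.52. The blocked fit with the GC and length correction left 2 of the 6 higher, against 8.67% of all genes. Slc12a5 measured 956.8, 1243 and 1410 CPM on polyribosomes and 768.8, 919.6 and 941.7 CPM in total RNA. The groups did not overlap, the log2 fold change was 0.46 (SE 0.19, adjusted p = 0.109), and with the block the adjusted p was 0.00306. That call was lost with the GC and length correction (0.28, adjusted p = 0.0829). Slc12a4, the widely expressed KCC1, was at 0.74 (SE 0.16, adjusted p = 0.0116, and 3.76e-06 with the block). Slc12a2, the importer NKCC1 that raises intracellular chloride, was at 171.4 ± 35.9 CPM against 169.3 ± 49 CPM (SD, n = 3), a log2 fold change of 0.00 (SE 0.23).

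Exchangers that move calcium, protons or bicarbonate were mixed. Of 7 sodium-calcium exchangers, Slc8a2 was higher with the block, at 679.3, 807.5 and 1075 CPM on polyribosomes and 479.0, 576.7 and 592.6 CPM in total RNA, with no overlap. Its log2 fold change was 0.64 (SE 0.20, adjusted p = 0.0415, and 4.19e-05 with the block). Its relative Slc8a1, the exchanger best known from heart and also found in neurons, was at −0.09 (SE 0.17), and Slc24a2 was at −0.23 (SE 0.18), and neither passed. The fold changes of both turned positive, to 0.52 and 0.17, in the blocked fit with the GC and length correction, and Slc8a1 then passed (adjusted p = 2.09e-04). Of 10 sodium-proton exchanger genes, 4 were higher with the block, but the highest of them, Slc9a3r1 (0.97) and Slc9a3r2 (0.67), are scaffolds that bind such exchangers. Slc9a3r2 did not pass with the GC and length correction added (0.18, adjusted p = 0.416). Slc9a3r1 was at 106.3, 122.2 and 166.4 CPM against 48.4, 62.3 and 98.8 CPM, without overlap. Slc9a7, an exchanger of the Golgi and endosomes, passed with the block at 0.58. Of 15 bicarbonate and anion exchangers, Slc4a2 passed with the block (0.79), whereas the abundant Slc4a4 (0.12) and Slc4a10 (−0.05), a neuronal bicarbonate carrier, did not. With the correction added, Slc4a4 was at 0.44 and passed (adjusted p = 0.00277).

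Fuel carriers differed among themselves. The 16 sugar carriers (median 0.31) were listed by family name, and not all of them carry sugars. Among them, Slc2a1, the glucose transporter GLUT1 of brain vessels and astrocytes, was at 268.8, 210.9 and 423.9 CPM on polyribosomes and 175.3, 162.1 and 193.7 CPM in total RNA. The third polyribosome library was far above the others. The log2 fold change was 0.77 (SE 0.23, adjusted p = 0.0351, and 5.91e-06 with the block), and 0.45 at its lowest with 1 library left out. Slc5a5, the iodide carrier, also passed with the block (1.09) at a low level of 9.98 ± 2.24 against 4.80 ± 1.05 CPM (SD, n = 3), but not with the GC and length correction added (0.70, adjusted p = 0.0412). Slc2a3, the neuronal glucose transporter GLUT3, was at 284.6 ± 12.6 against 239.3 ± 37.8 CPM and did not pass (0.24, adjusted p = 0.346). Monocarboxylate carriers, which include the lactate transporters, had the lowest median of any role (−0.17, 12 genes), and none passed with or without the block. Adding the GC and length correction to the block gave a median of 0.07, and 2 were then higher, Slc16a1 and Slc16a7. Slc16a1, the lactate transporter MCT1 of vessels and glia, was at 139.7, 121.0 and 129.9 CPM against 129.6, 114.5 and 78.6 CPM. The groups overlapped, and the log2 fold change was 0.25 (SE 0.19, adjusted p = 0.373), and 0.56 with the correction (adjusted p = 4.37e-05). Slc16a7, the neuronal lactate transporter MCT2, was at 61.3, 63.6 and 43.2 CPM against 68.5, 67.6 and 68.1 CPM. Its total RNA libraries were nearly equal and all above the polyribosome libraries. The log2 fold change of Slc16a7 was −0.28 (SE 0.18, adjusted p = 0.305) and 0.40 with GC content, length and the block in the model (adjusted p = 0.00592), so its direction depended on that correction.

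Amino acid and peptide carriers outside the Slc1 and Slc6 families numbered 27, with Slc7a6os among them although it encodes no carrier. Their median was 0.25. Of these, 22 had a positive fold change, 5 were higher with the block (18.5%, against 11.8% of all genes) and 1 was lower (3.7%, against 13.2%). Under the GC and length correction in the blocked fit, 10 were higher and 0 lower. Slc3a2, the heavy chain CD98 that brings Slc7 light chains to the cell surface, was at 240.6, 257.6 and 397.2 CPM on polyribosomes and 150.2, 158.7 and 202.3 CPM in total RNA. Its groups did not overlap, and the log2 fold change was 0.82 (SE 0.21, adjusted p = 0.0217, and 2.82e-07 with the block). Its best-known partner at the blood-brain barrier, the large neutral amino acid transporter Slc7a5, was at 0.32 (SE 0.17) and did not pass. Slc38a3, the astrocytic glutamine transporter SNAT3, was at 234.3, 282.0 and 361.9 CPM against 182.8, 183.5 and 185.1 CPM. Its total RNA libraries were almost equal and lay below every polyribosome library, with a log2 fold change of 0.67 (SE 0.18, adjusted p = 0.0275, and 2.78e-05 with the block). The neuronal glutamine transporters Slc38a1 and Slc38a2 were each at 0.15 (SE 0.17 and 0.19) and did not pass with or without the block. They were at 0.37 (adjusted p = 0.00981) and 0.45 (adjusted p = 0.00137) in the blocked fit with the GC and length correction, and both then passed. Slc38a3 was at 0.45 in that fit (adjusted p = 0.00127). Slc7a4, an orphan relative of the cationic amino acid transporters, passed with the block at 0.65.

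The 3 carriers that were lower with the block sat in different roles. Slc36a4, an amino acid carrier of the PAT family, was at 71.8, 75 and 41.2 CPM on polyribosomes and 84.9, 88.1 and 88.2 CPM in total RNA. Polyribosome replicate 3 was far below the others, the log2 fold change was −0.47 (SE 0.21, adjusted p = 0.134), and with the block the adjusted p was 0.00425. Slc35a3, the Golgi carrier of UDP-N-acetylglucosamine, was at 23.4, 28.5 and 12.8 CPM against 33.0, 37.8 and 24 CPM. Its groups overlapped, since the third preparation was low in both, but each pair was lower, with a log2 fold change of −0.58 (SE 0.26, adjusted p = 0.131, and 0.00477 with the block). Slc30a9, a zinc carrier of mitochondria, was at 114.8, 105.3 and 58.7 CPM against 141.0, 142.3 and 89.2 CPM, likewise overlapping, with a log2 fold change of −0.44 (SE 0.24, adjusted p = 0.222, and 0.00486 with the block). With the GC and length correction added to the block, the values of Slc36a4, Slc35a3 and Slc30a9 were −0.08, −0.02 and −0.12, and none passed.

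Metal carriers (24 genes, median 0.08) and nucleotide-sugar carriers (24 genes, median −0.01) lay near the middle of all genes. With the block, Slc39a12, a zinc importer of astrocytes (0.56), Slc39a13 (0.55) and Slc39a3 (0.39) were higher. In the corrected fit with the block, Slc39a12 was at 0.74 and passed (adjusted p = 5.67e-08), whereas Slc39a13 (0.17, adjusted p = 0.488) and Slc39a3 (0.10, adjusted p = 0.567) did not. Slc39a12 was at 235.4, 197.9 and 277.1 CPM on polyribosomes against 185.7, 161.8 and 131.4 CPM in total RNA. Slc39a10, a zinc importer of the plasma membrane, was at 249.3 ± 55.5 against 276.0 ± 74.1 CPM (SD, n = 3) and did not pass, nor did the haem carrier Slc48a1 (0.04). In the Golgi group, Slc35a2, the carrier of UDP-galactose, was at 51.0, 41.9 and 64.4 CPM against 19.1, 30.8 and 34.5 CPM, with a log2 fold change of 0.96 (SE 0.23, adjusted p = 0.0182, and 5.13e-07 with the block). Its groups did not overlap. Slc35e4, an orphan of that family, passed with the block at 0.60, but not with the correction added (0.21, adjusted p = 0.260). Slc35a1, the CMP-sialic acid carrier (−0.02), Slc35b1 (−0.06) and Slc35e1 (−0.02) passed neither test.

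Among 24 carriers of nucleosides, choline, vitamins and organic ions (median 0.20), Slc22a17 was at 754, 851 and 1062 CPM on polyribosomes and 494, 511 and 564 CPM in total RNA. The groups were well apart, and the log2 fold change was 0.77 (SE 0.18, adjusted p = 0.0152, and 6.24e-07 with the block). Its transcript has a GC content of 62.2%, and with the GC and length correction the blocked value was 0.27 and no longer passed (adjusted p = 0.0863). Slc29a2, an equilibrative nucleoside transporter (0.74), and Slc22a6, an organic anion transporter (0.69), also passed with the block, and Slc29a2 did not with the correction added (0.33, adjusted p = 0.194). The vitamin C transporter Slc23a2 (0.08) and the choline transporter Slc44a1 (0.01) passed neither with nor without the block. With the correction added, Slc44a1 was at 0.39 and passed (adjusted p = 0.00574), and Slc23a2 was at 0.26 and did not (adjusted p = 0.0823). The 6 phosphate and sugar-phosphate carriers all had positive fold changes (median 0.20) and none passed, including the phosphate carriers Slc20a1 (0.14) and Slc20a2 (0.36). In the remaining group of 11 (median 0.58), Slc27a1 and Slc27a4, which bring long-chain fatty acids into cells, and Slc13a5 and Slc13a3, which carry citrate and other dicarboxylates, were higher with the block. Slc27a1 was at 258.0, 241.5 and 408.3 CPM against 160.4, 155.4 and 204.3 CPM, without overlap, with a log2 fold change of 0.81 (SE 0.21, adjusted p = 0.0237, and 4.23e-07 with the block).

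Carriers known from certain brain cell types were compared as lists drawn from textbook knowledge, chosen with earlier results of these data known. The lists are not exclusive. Slc16a1 stood in both the endothelial and the oligodendrocyte list and counts in both, and Slc2a1, also of astrocytes, was listed as endothelial only. Of 12 astrocyte carriers, 11 had a positive fold change, the median was 0.57, and 7 were higher with the block (58.3%, against 11.8% of all genes). They were Slc6a9, Slc6a11, Slc7a10, Slc13a3, Slc27a1, Slc38a3 and Slc39a12. With the GC and length correction added to the block, 11 of the 12 were higher, against 8.67% of all genes, and Slc4a4 (0.44), Slc7a11, the cystine-glutamate exchanger (0.45), Slc14a1, a urea transporter (0.54), and Slc15a2, a peptide transporter (0.47), were among them. Their summed share of counts was 0.304% ± 0.00599 on polyribosomes and 0.246% ± 0.0269 in total RNA (SD, n = 3), with no overlap between libraries. Of 14 neuronal carriers, 10 had a positive fold change, the median was 0.21 and 5 were higher with the block, among them Slc6a7, Slc8a2, Slc12a5 and Slc30a3. Their summed share was 0.676% ± 0.0612 against 0.613% ± 0.0417, with overlapping libraries. The summed share of the 11 brain endothelial carriers was 0.119% ± 0.0171 against 0.0946% ± 0.00697, without overlap between libraries. Their median was 0.14, and 2 of them, Slc2a1 and Slc3a2, were higher with the block. Of 5 choroid plexus carriers with enough counts, from 6 listed (median 0.58), Slc4a2 and Slc5a5 were, and of 4 oligodendrocyte carriers (median 0.01) none. The share of the 6 listed choroid plexus carriers was 0.0134% ± 0.000561 against 0.00948% ± 0.00156, also without overlap. Libraries overlapped for the oligodendrocyte carriers. In the blocked fit with GC content and length, the median of the oligodendrocyte carriers was 0.37 with 2 of 4 higher, that of the neuronal carriers 0.30 with 3 of 14, that of the endothelial carriers 0.22 with 3 of 11, that of the choroid plexus carriers 0.44 with 1 of 5, and that of the astrocyte carriers 0.46. The difference between these lists was not tested.

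**Figure D4:**
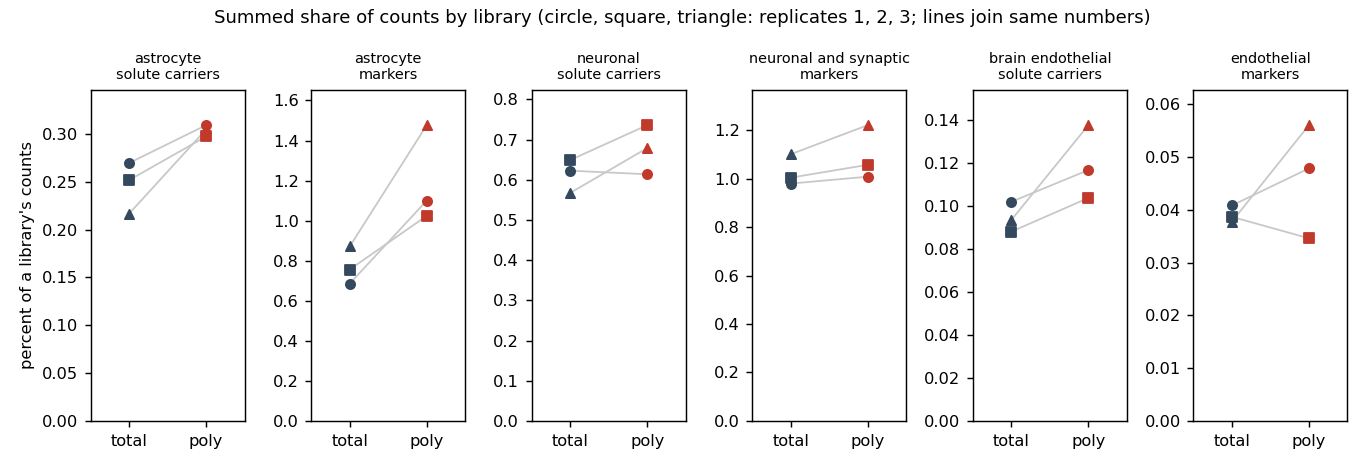
Summed share of each library's counts (percent, axis from 0, scaled per panel) for carriers and for non-carrier markers of astrocytes, neurons and endothelial cells; shapes are replicates and lines join same-numbered libraries of total RNA and polyribosomes. Astrocyte carriers, astrocyte markers and brain endothelial carriers are higher on polyribosomes in all 3 pairs, without overlap between groups. Neuronal and synaptic markers are higher in all 3 pairs but overlap between groups. Neuronal carriers and endothelial markers overlap and are not higher in every pair.

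Markers of those cell types that are not carriers were also measured, and none was at 0 in the table. The 10 astrocyte markers all had positive fold changes (median 0.68), 8 were higher with the block, and their summed share was 1.02% to 1.48% on polyribosomes against 0.686% to 0.871% in total RNA. Microglial markers had a median of 0.37 (10 of 10 positive, 0.0842% to 0.0975% against 0.0591% to 0.0787%), oligodendrocyte markers 0.30 (9 of 10 positive, 1.04% to 1.55% against 0.818% to 1.25%), and endothelial markers 0.31 (8 of 10 positive, 0.0346% to 0.0561% against 0.0378% to 0.0409%). Choroid plexus markers had a median of 0.65 (6 of 6 positive, 0.0502% to 0.0872% against 0.0306% to 0.0509%), and mural cell markers 0.47 (4 of 5 tested positive, 0.0487% to 0.0747% against 0.0479% to 0.0543%). The 12 neuronal and synaptic markers had a median of 0.08 (7 positive, 1.01% to 1.22% against 0.981% to 1.10%). The preparation thus held RNA of glia and vessels beside that of synapses, and the medians of all these marker lists were positive, as that of the carriers was. The neuronal median turned negative under library totals (−0.03) and in the blocked fit with the GC and length correction (−0.03). Their part in the carriers' values was not tested.

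Transcript properties that the choice of genes did not use moved with the fold change. Across the 200 carriers the Pearson correlation of log2 fold change with the GC content of the transcript was 0.65 (Spearman rho 0.68), and over 12212 genes it was 0.54. With the length of the 3′ untranslated region it was −0.45 (rho −0.47), and −0.25 over all genes. With the length of the coding sequence it was 0.12 for the carriers and −0.21 over all genes. These are descriptions across genes that share the same 6 libraries. For 197 carriers the coding sequence could be read, and 4 sets of 49 or 50 genes, ordered by the share of codons with G or C at the third position, had medians of −0.03 (37.1% to 56.9%), 0.06 (57.4% to 66.2%), 0.24 (66.4% to 71.4%) and 0.42 (71.6% to 82.8%). With the block, 2, 4, 7 and 21 carriers were higher in these sets. The stretches of Slc35a3 and Slc7a10 printed above come from the lowest and the highest set. With the GC and length correction added to the block, 36 carriers were higher, against 8.67% of all genes, and 0 were lower, against 7.31%. Of the 35 higher without that correction, 23 were among them, 12 were not, and 13 were added, and the set medians became 0.25, 0.17, 0.17 and 0.30.

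**Figure D5:**
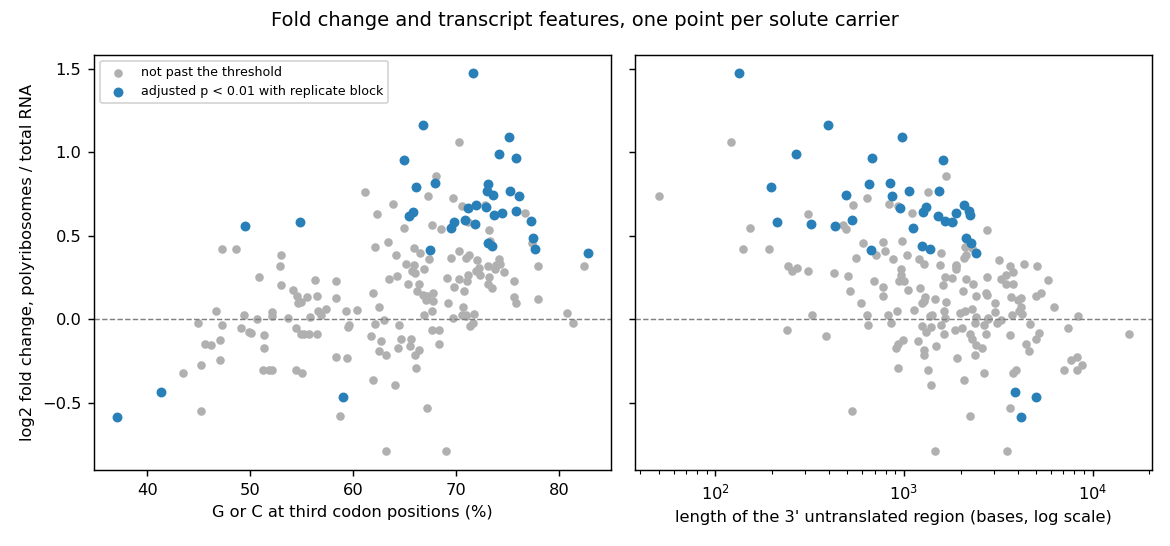
Log2 fold change of each solute carrier against the percentage of codons with G or C at the third position (left, 197 genes) and against the length of the 3′ untranslated region (right, log axis), with genes past an adjusted p of 0.01 with the replicate block in blue. Fold changes are higher towards the right in the left panel and lower towards the right in the right panel.

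The mitochondrial carriers of the Slc25 family were chosen by the same count minimum. Their 37 genes had a median log2 fold change of −0.15 against 0.19 for the carriers outside Slc25, and 16 (43.2%) were positive. Taken within same-numbered pairs the Slc25 medians were −0.02, −0.02 and 0.09, with a mean of 0.02 ± 0.06 (SD, 3 pairs), so their direction was not the same in every pair. Without the block 0 were higher (0.71% of all genes) and 2 lower (5.41%, against 2.36%). With it 7 were higher (18.9%, against 11.8%) and 5 lower (13.5%, against 13.2%). The corrected blocked fit gave a median of −0.09, with 2 higher and 5 lower. The difference between both families was not tested.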

How the data were processed

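The members and gene lists were chosen with earlier results of these data known. The authors depleted ribosomal RNA, made strand-specific libraries, mapped reads with STAR 2.5.2b (version per the labels' processing notes) to GRCm38 and deposited raw counts per protein-coding gene, made with Gencode vM6 basic gene models. Their deposited DESeq2 comparison (fold changes, p-values) was not used.

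Counts were compared with edgeR 4.0.16 in R 4.3.3 (TMM, filterByExpr, quasi-likelihood test, group only, all 6 libraries, Benjamini-Hochberg adjustment over 12255 genes, threshold 0.01). The smallest library, 1044955 counts, limits precision. CPM values use TMM library sizes, and the SE is the log2 fold change divided by the root of the F statistic. Without the block, p-values cover the spread between 3 preparations per group. With the block, the error was largely shared across genes. Its SE was 0.126 for Slc44a1 (pairs 0.03, 0.02 and 0.07) and 0.128 for Slc2a1 (pairs 0.62, 0.38 and 1.13). Block p-values therefore do not measure each gene's own spread between preparations. Same-numbered libraries share a preparation by the methods and labels, and their deviations correlated at 0.37, 0.26 and 0.38 across genes, so the replicate was used as a block in a second fit. Replicates differed by more than sampling noise. The procedure was tested on counts simulated with known fold changes and without a GC or length effect. Genes of equal level were given the same spread, and the fit without the block met no shared preparation effect. That simulation cannot show how the calls behave under such effects or under a spread particular to each gene.

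GC content and lengths came from the longest coding transcript in Gencode vM21, present for 99.6% of the genes tested. Named genes were 32 fixed carriers, members past the threshold, the 6 largest changes at each end with the block (mean normalized count of at least 100, all 3 pairs in one direction), the 2 highest per role by level per kb, and members next to the count minimum. Alternatives were DESeq2 1.42.0, other scalings, no filter, the block, a GC and length offset, and leaving out each library. Fits of the block without each pair, and the count of genes without overlapping exons, were chosen after seeing the data. Some carriers are not reported here by name, but they remain in all counts and medians.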

Additional observations from a re-analysis of the deposited data

How the results depend on the processing

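The median log2 fold change of the carriers stayed between 0.15 and 0.26 in the fits other than library totals alone (0.083), and leaving out 1 library gave 0.15 to 0.23. The number of carriers called was far less stable. Against 3 higher, the replicate block gave 35, the block with the GC and length offset 36, DESeq2 15 and all genes with at least 1 count 14, while the GC and length offset alone and library totals alone gave 0, and genes with no overlapping exon held 1. Leaving out 1 library gave 0 to 2 higher and 0 lower. The block without pair 1, 2 or 3 gave 20, 12 and 35 higher and 1, 0 and 3 lower, and the block with all pairs 3 lower. Except where fewer genes or samples entered, the cause was not tested.

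Of 669 values of 48 named genes under alternatives, 536 kept direction and side of the threshold, 50 came to pass, 20 ceased to pass and 63 changed sign, with 30 genes never changing sign. With the block the sign changed for Slc35a1 (0.034) and Slc4a5 (−0.070). With the block and the offset it changed for Slc16a7 (0.40), Slc24a2 (0.17), Slc30a3 (−0.036), Slc35a1 (0.17), Slc39a10 (0.15), Slc48a1 (−0.20), Slc4a10 (0.33), Slc4a5 (−0.067), Slc6a8 (−0.14) and Slc8a1 (0.52). The offset alone gave Slc16a7 0.38, Slc24a2 0.18, Slc30a3 −0.039, Slc35a1 0.12, Slc39a10 0.14, Slc48a1 −0.22, Slc4a10 0.34, Slc6a8 −0.16 and Slc8a1 0.54. Library totals alone gave Slc12a2 −0.10, Slc17a8 −0.046, Slc23a2 −0.031, Slc44a1 −0.088, Slc48a1 −0.065, Slc4a5 −0.11 and Slc6a8 −0.072, and upper-quartile scaling gave Slc12a2 −0.011 and Slc4a5 −0.0060. DESeq2 gave Slc35a1 0.0072, and all genes with at least 1 count gave it 0.0006. With 1 library left out, signs changed within the ranges of −0.20 to 0.16 for Slc12a2, −0.31 to 0.66 for Slc17a8, −0.029 to 0.26 for Slc20a1, −0.12 to 0.12 for Slc35a1, −0.20 to 0.17 for Slc35b1, −0.17 to 0.12 for Slc35e1, −0.0017 to 0.28 for Slc38a2, −0.34 to 0.026 for Slc39a10, −0.24 to 0.27 for Slc44a1, −0.089 to 0.18 for Slc48a1, −0.23 to 0.095 for Slc4a10, −0.76 to 0.55 for Slc4a5 and −0.040 to 0.15 for Slc6a8. Of 196 medians of role lists under alternatives, 12 moved by more than the spread between pairs, among them the monocarboxylate carriers with the GC and length offset (0.08, and 0.07 with the block).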
